A study of Danio rerio with 8 samples.

Results

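The lens crystallin family comprised 57 genes of the 32020 in the count table, chosen by symbol: all whose name begins with crya, cryb or cryg, with the 3 crybg genes left out. Of these, 3 belong to the alpha class, 13 to the beta class and 41 to the gamma class. The rule reads names and no measured value, although the family was picked for description with earlier results of these data known. RNA came from zebrafish embryos, with 4 libraries of embryos exposed to 7,17-diHDPAn-3 (numbered 5 to 8) and 4 of control embryos (numbered 1 to 4). 7,17-diHDPAn-3 is a lipid mediator derived from docosapentaenoic acid, an omega-3 fatty acid, and was dissolved in ethanol. The study screened omega-3 metabolites at 1.5 µM between 11 and 36 hours post fertilization and searched doses from 1 to 1.75 µM. For these 8 libraries the dose, the hours of exposure, the age of the embryos and any ethanol given to controls are not stated in the labels. The labels give the cell type as erythrocytes and their progenitors, and whether cells were sorted is not stated. The AB wild-type strain and the transgenic lines Tg(gata1: Dsred) and Tg(CD41:GFP) are named for the study as a whole, without stating which of them gave these libraries. Every library name ends in gata_1, and control 4 alone has 2b in its name; the labels do not say what either stands for. The gata1 and CD41 promoters in those lines drive fluorescent proteins that mark red cells and thrombocytes with early blood cells.

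The lens is built almost wholly of fibre cells that fill with crystallins, lose their organelles and persist for life, so that crystallin transcripts mark lens fibre differentiation in an embryo. Alpha crystallins are small heat shock proteins that hold other proteins in solution. Beta and gamma crystallins share a fold of paired Greek key motifs and pack densely, which gives the lens its refractive power. Beta crystallins form oligomers and are divided into acidic (A) and basic (B) members, whereas gamma crystallins are monomers. Fish carry a large group of gamma M crystallins, rich in methionine, in addition to the gamma S and gamma N members that mammals also have.

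Total counts ran from 2502636 to 4794081 per library, with the smallest total in treated 5 and the largest in control 1. The label for cell type names erythrocytes and their progenitors, yet all 8 libraries held counts of lens crystallins. Markers of embryonic red cells summed to between 6445 and 16249 CPM (the count relative to the scaled total of its library) in treated libraries and between 6837 and 15941 CPM in controls. Fast and slow muscle genes summed to between 18717 and 42950 CPM in treated libraries and between 3486 and 28963 CPM in controls, so the labelled cell type did not describe all of the RNA. In bulk RNA, fewer cells of a type and less RNA per cell cannot be told apart, which applies to every level below. The labels do not tie the libraries to separate clutches, so p-values describe only how these libraries vary, and that variation may be technical.

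Crystallins took 3730 of all counts in the 8 libraries, or 0.0127%. Beta genes held 2981 of these counts, gamma genes 745 and alpha genes 4. In single libraries the family had 498 counts in treated 5, 567 in treated 6, 384 in treated 7 and 899 in treated 8, against 259 in control 1, 662 in control 2, 87 in control 3 and 374 in control 4. Control 3 held the fewest crystallin counts and treated 8 the most. 25 of the 57 genes, or 43.9%, had no count in any library, against 28.8% of all rows in the table. A count of 0 over all 8 libraries allows a level of up to 0.102 CPM, taking 3 counts as the limit and covering counting error only.

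**Figure D1:**
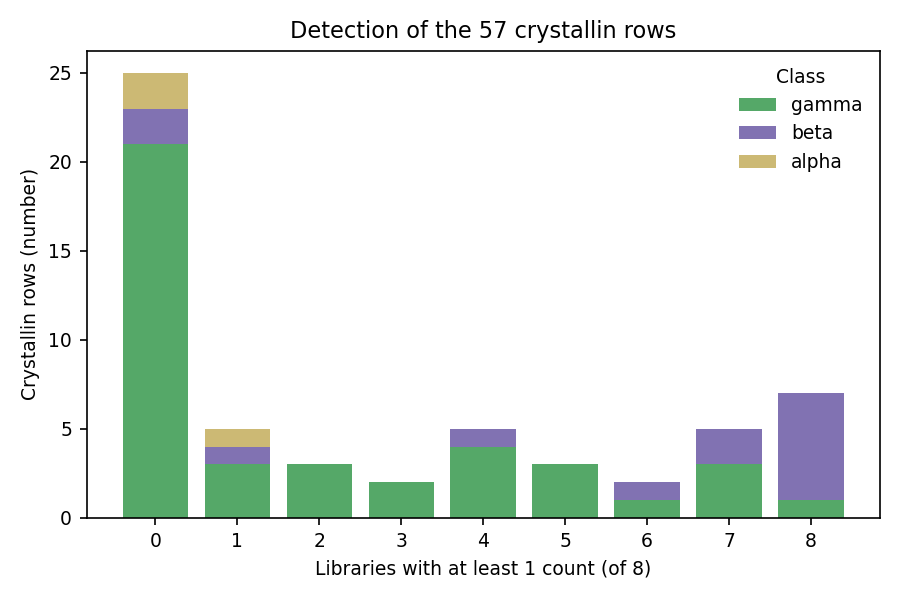
Number of crystallin genes (vertical axis) by the number of libraries in which they had at least 1 count (horizontal axis, 0 to 8), stacked by class. 25 genes, 21 of them gamma, were listed with no count in any library, and 6 of the 7 genes counted in all 8 libraries belong to the beta class.

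The alpha crystallins were hardly detected. CRYAA, the lens alpha A chaperone, had 0 counts in each of the 4 treated libraries and in controls 2, 3 and 4, and 4 counts in control 1. Both genes named CRYAB, the alpha B chaperone that muscle also uses in mammals, had 0 counts in all 8 libraries. No alpha gene reached the 10 counts over the 8 libraries that were required for comparison, so no alpha gene was tested. Differences between groups in the alpha class were not detectable at this depth.

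Detection differed among the remaining classes. 11 of 13 beta genes had at least 1 count, and 10 were tested. CRYBA1 and CRYBB2 had none, and crybb1l3 had 3 counts, all in treated 7. Of 41 gamma genes, 20 had at least 1 count and 15 were tested. The gamma S genes held few counts: CRYGS (ENSDARG00000041171) had 6 counts, all in control 3, and the second CRYGS gene, crygs3 and crygs4 had none. The genes just below the limit of 10 counts were crygm2d18 with 8 and crygm2d20 with 7, and those just above it were crygm2d6 with 11 and crygm2d1 with 13. Crystallin genes with at least 1 count numbered 22, 17, 16 and 22 in treated 5, 6, 7 and 8, and 18, 23, 12 and 25 in controls 1, 2, 3 and 4. Brought to the total of treated 5, the expected numbers were 22, 16.6, 16.0 and 21.8 in treated 5 to 8 and 17.0, 22.6, 11.9 and 24.3 in controls 1 to 4. The groups overlapped in this number.

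The comparison of treated with control libraries covered 19151 genes, of which 3 (0.0157%) passed edgeR's quasi-likelihood test at a threshold of 0.05 after Benjamini-Hochberg adjustment. None of the 25 tested crystallins was among them, and their adjusted p ran from 0.399 to 0.999. 19 of the 25 had higher and 6 lower values in treated libraries, where 48.2% of all tested genes were higher. 5 of the 25 had under 5 counts in one group and so drew most of their counts from the other. Of these 5, 2 were higher and 3 lower in treated libraries. The median log2 fold change (treated over control) was 1.02 over the 25 crystallins and -0.02 over all tested genes. Without adjustment, at the same threshold, 6 crystallins were higher (background 3.17%) and 2 were lower (background 3.69%). Most of the better-covered crystallins rose and fell together across libraries, so these counts do not stand for independent genes. The 2 lower ones, CRYBB3 and crygm2d2, had 0 counts in treated libraries and passed the limit through the controls alone. With DESeq2, 19 genes passed (0.217% of those given an adjusted p), with 0 crystallins among them, but DESeq2 gave an adjusted p to only 5 of the 25 crystallins, and the other 20 could not pass.

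Summed over the 13 beta genes, the level was 156 CPM in treated 5, 122 CPM in treated 6, 101 CPM in treated 7 and 205 CPM in treated 8, against 42.1 CPM in control 1, 133 CPM in control 2, 21.4 CPM in control 3 and 57.8 CPM in control 4. All treated libraries lay above controls 1, 3 and 4, and control 2 lay inside the treated range. The means were 145.8 ± 45.3 CPM in treated and 63.5 ± 48.5 CPM in control libraries (SD, n = 4 each), a ratio of 2.3. Without control 2 the ratio was 3.60, and the controls then ended at 57.8 CPM, below the lowest treated library. With each other library left out in turn, the ratio ran from 1.88, without control 3, to 2.53, without treated 7. The 7 acidic genes summed to 75.2 ± 15.2 CPM in treated and 30.7 ± 22.2 CPM in control libraries, and the 6 basic genes to 70.6 ± 31.6 CPM and 32.9 ± 26.7 CPM in treated and control libraries (SD, n = 4 each).

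**Figure D2:**
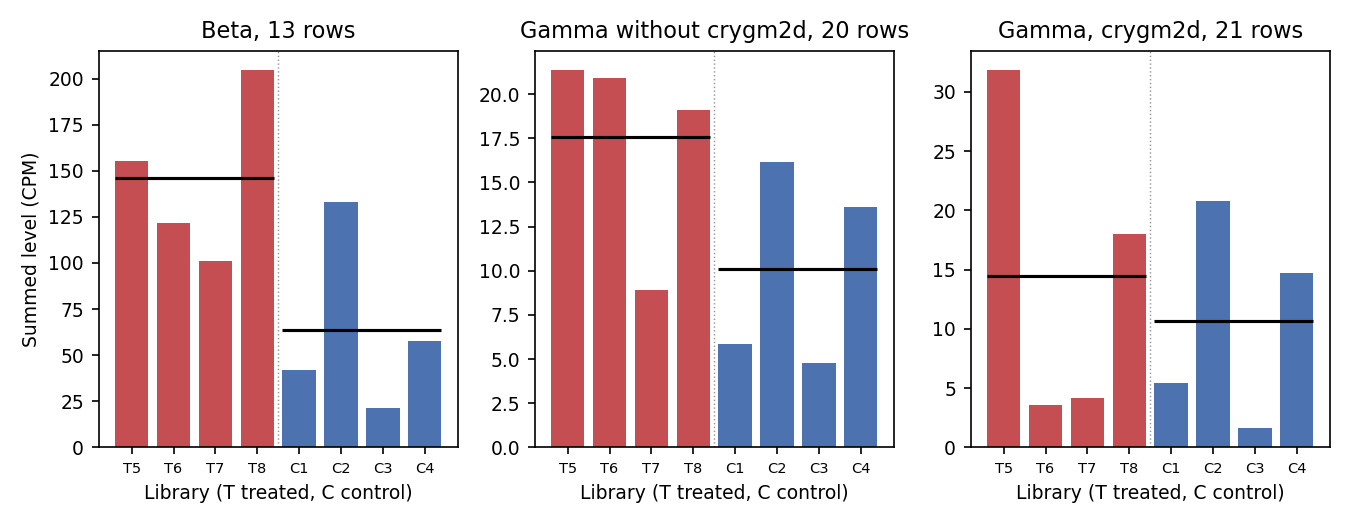
Summed level in CPM (vertical axes, each from 0 with its own scale) in the 4 treated (T5 to T8, red) and 4 control (C1 to C4, blue) libraries for the beta genes, for the gamma genes other than crygm2d and for the crygm2d genes; black lines are group means. Control 2 reached 133 CPM of beta transcripts, within the treated range of 101 to 205 CPM. Treated 6, treated 7 and control 3 held under 5 CPM of crygm2d transcripts, with control 3 the lowest at 1.60 CPM.

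Among the acidic beta genes, CRYBA4 separated the groups. Its level was 26.8, 13.7, 19.6 and 25.0 CPM in treated 5 to 8, against 7.55, 12.6, 3.20 and 10.4 CPM in controls 1 to 4. All treated libraries were above all controls, although treated 6 and control 2 lay 1.12 CPM apart. The log2 fold change was 1.31 ± 0.33 (SE), with an edgeR adjusted p of 0.399 and a DESeq2 adjusted p of 0.140.

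The other crystallin without overlap in this direction was CRYBA2 (ENSDARG00000030349), 1 of 2 genes of that name. It stood at 9.64, 11.1, 9.52 and 9.69 CPM in treated 5 to 8, against 0.839, 7.43, 0 and 2.07 CPM in controls 1 to 4. The treated libraries lay close together, while the controls ran from no count in control 3 to a level near the treated ones in control 2. Its log2 fold change was 1.93 ± 0.69 (SE, edgeR adjusted p = 0.685), 1.57 without control 3 and 3.23 without control 2. Groups without overlap and higher in treated libraries made up 1.8% of all tested genes.

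The second CRYBA2 gene (ENSDARG00000041925) did not share this pattern. It had 14.3, 5.42, 4.16 and 15.1 CPM in treated 5 to 8, against 3.56, 11.3, 0.959 and 2.99 CPM in controls 1 to 4. Only treated 5 and 8 exceeded control 2, and the log2 fold change was 1.02 ± 0.63 (SE, edgeR adjusted p = 0.879). Reads that fit both copies could have been split between them by the counting, which the sources used here do not describe.

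cryba1b, a beta A1 gene, stood at 18.4, 24.8, 11.0 and 23.7 CPM in treated 5 to 8 and at 3.56, 17.2, 4.16 and 7.83 CPM in controls 1 to 4 (log2 fold change 1.25 ± 0.44 SE, edgeR adjusted p = 0.665). Control 2 was above treated 7 and below the other 3 treated libraries. Its relative cryba1l1 had 13, 12.1, 9.22 and 15.1 CPM in treated 5 to 8 and 6.71, 10.8, 0 and 7.14 CPM in controls 1 to 4 (0.97 ± 0.63 SE, edgeR adjusted p = 0.896). In cryba1l1 again treated 7 was the only treated library below control 2. A further relative, cryba1l2, was sparse, with 7, 11, 9 and 4 counts in treated 5 to 8 and 0, 6, 0 and 4 counts in controls 1 to 4.

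Of the basic beta genes, CRYBB1, a structural protein of fibre cells, had 30.6, 20.9, 15.5 and 38.2 CPM in treated 5 to 8, against 7.13, 20.3, 3.20 and 6.68 CPM in controls 1 to 4. Control 2 stood well above the other controls, close to treated 6 and above treated 7. The log2 fold change was 1.48 ± 0.50 (SE, edgeR adjusted p = 0.665, DESeq2 adjusted p = 0.232), 1.23 without control 3 and 2.17 without control 2.

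crybb1l1, a paralog of CRYBB1, varied widely within both groups. It had 23.5, 19.6, 12.2 and 53.0 CPM in treated 5 to 8, against 6.71, 35.6, 5.75 and 10.8 CPM in controls 1 to 4. Treated 8 and control 2 stood well above the other members of their groups. The log2 fold change was 0.88 ± 0.74 (SE, edgeR adjusted p = 0.961), 0.31 without treated 8 and 1.79 without control 2. crybb1l2 had 16.4, 11.4, 16.4 and 24.0 CPM in treated 5 to 8 and 5.03, 14.1, 2.24 and 7.83 CPM in controls 1 to 4 (1.21 ± 0.41 SE, edgeR adjusted p = 0.643), with treated 6 the only treated library below control 2.

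CRYBB3, a further basic member, ran the other way. It had 0 counts in all 4 treated libraries, against 5, 8, 6 and 5 counts in controls 1 to 4. With 3 counts over the treated group as the limit for 0, the observed control level was 6.61-fold that limit. This ratio leaves out the counting error of the controls and the variation between libraries, so it is not a minimum fold. The edgeR adjusted p of CRYBB3 was 0.659, and 30 of the 19151 tested genes (0.157%) had counts in all 4 controls and none in treated libraries. Groups without overlap and lower in treated libraries made up 2.23% of all tested genes, and CRYBB3 was the 1 crystallin among them. CRYBB3 was singled out after its values were seen. It differed from every other tested beta gene in direction, and control 3, where the other beta genes were mostly lowest, held 6 of its 24 counts.

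**Figure D3:**
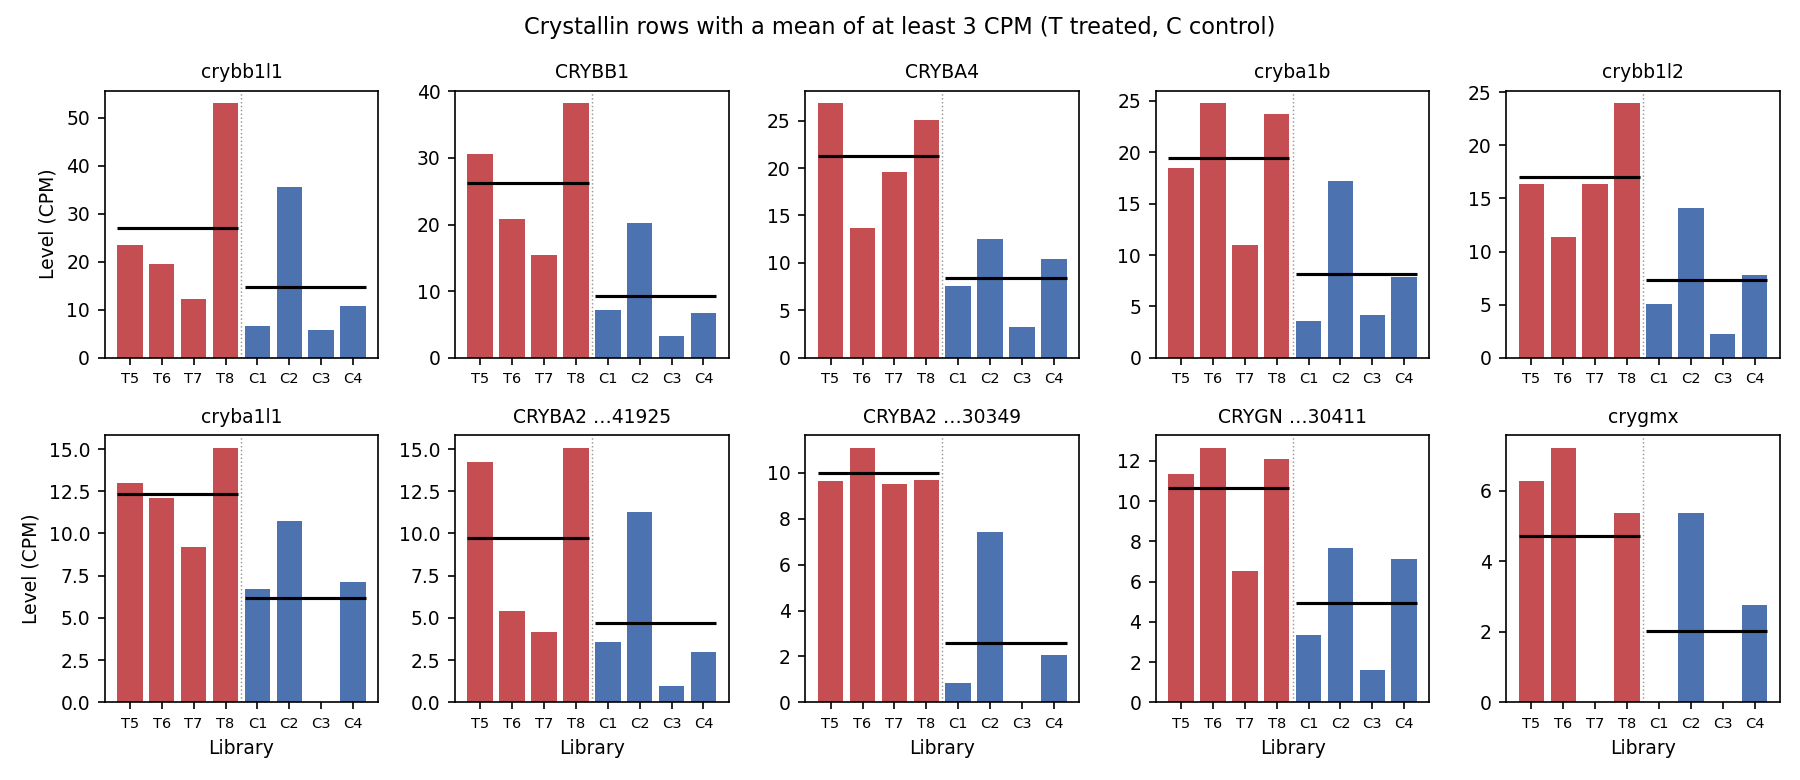
Level in CPM (vertical axes, each from 0 with its own scale) of the 10 crystallin genes with a mean of at least 3 CPM, in the 4 treated (red) and 4 control (blue) libraries; black lines are group means, and the 2 genes named CRYBA2 and CRYGN carry the last digits of their identifiers. In 8 of the 10 genes all treated libraries exceeded controls 1, 3 and 4, as in 3% of all tested genes. In 2 of them, CRYBA4 and CRYBA2 (ENSDARG00000030349), all treated libraries also exceeded control 2, as in 1.8% of all tested genes. CRYBA2 (ENSDARG00000030349) and crygmx reached 3 CPM in the treated group alone. Of the other 8 genes, 7 had all treated libraries above controls 1, 3 and 4, and only CRYBA4 had them above control 2 as well.

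The gamma genes gave a less even picture. Their sum was 53.2, 24.5, 13.1 and 37.1 CPM in treated 5 to 8, against 11.3, 36.9, 6.39 and 28.3 CPM in controls 1 to 4. The groups overlapped, with treated 6 and 7 below controls 2 and 4. The means were 32.0 ± 17.2 CPM in treated and 20.7 ± 14.3 CPM in control libraries (SD, n = 4 each), a ratio of 1.54 that was 1.2 without treated 5 and 2.08 without control 2. The median log2 fold change was 0.33 over the 15 tested gamma genes and 1.23 over the 10 tested beta genes. Over the genes with a mean of at least 3 CPM it was 1.14 in the gamma class (2 genes) and 1.23 in the beta class (8 genes). Among these, crygmx in the gamma class and CRYBA2 (ENSDARG00000030349) in the beta class reached 3 CPM in the treated group alone. These 2 medians so depend in part on that limit. A test of the difference between the classes was not made.

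CRYGN (ENSDARG00000030411), a gamma N gene, had 11.3, 12.6, 6.54 and 12.1 CPM in treated 5 to 8, against 3.35, 7.69, 1.60 and 7.14 CPM in controls 1 to 4. Treated 7 lay below controls 2 and 4, and the other treated libraries lay above all controls (log2 fold change 1.09 ± 0.40 SE, edgeR adjusted p = 0.664). It was the 1 gamma gene counted in all 8 libraries. The second gene of that name had no count.

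crygmx, a gamma M gene, had 6.29, 7.23, 0 and 5.38 CPM in treated 5 to 8, against 0, 5.38, 0 and 2.76 CPM in controls 1 to 4. It had no count in treated 7, control 1 and control 3 (log2 fold change 1.19 ± 1.22 SE, edgeR adjusted p = 0.979). crygmxl2, its neighbour in gene order, had 27 counts and was likewise without counts in controls 1 and 3. The 2 genes differed in treated libraries, where crygmxl2 had 4, 0, 3 and 6 counts in treated 5 to 8. The log2 fold change of crygmxl2 was 0.24 ± 1.65 (SE, edgeR adjusted p = 0.998). crygm4 had 5, 4, 5 and 0 counts in treated 5 to 8 and 12, 2, 4 and 12 counts in controls 1 to 4, and so did not follow the beta genes.

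The 21 crygm2d genes are closely related copies that stand side by side as consecutive protein-coding genes in the RefSeq gene order of assembly GRCz12tu. None was counted in all 8 libraries, 6 had no count, 4 had between 2 and 8 counts, and the 11 tested ones had 11 to 67 counts each. Reads could have been divided among the copies, so their sum is given first. It was 31.9, 3.61, 4.16 and 18.0 CPM in treated 5 to 8, against 5.45, 20.8, 1.60 and 14.7 CPM in controls 1 to 4. In summed beta transcripts treated 6 and 7 lay above controls 1, 3 and 4 and below control 2. The same 2 libraries held less crygm2d RNA than 3 of the 4 controls. The number of crygm2d genes with counts was also low in treated 6 and 7 and in control 3, at 9, 5, 3 and 10 in treated 5 to 8 and 6, 9, 2 and 11 in controls 1 to 4.

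Single copies were counted in some libraries and missing from others of the same group. crygm2d8 had 8, 0, 0 and 7 counts in treated 5 to 8 and 0, 22, 0 and 3 counts in controls 1 to 4. crygm2d19 had 14, 0, 6 and 12 counts in treated 5 to 8 and 2, 15, 0 and 18 counts in controls 1 to 4. crygm2d6 was counted in control 2 alone, with 11 counts, and crygm2d2 in controls 2 and 4, with 10 and 6 counts. Their edgeR adjusted p was 0.759 for crygm2d6 and 0.721 for crygm2d2. The remaining tested copies, crygm2d1, crygm2d3, crygm2d7, crygm2d10, crygm2d12, crygm2d13 and crygm2d21, had between 13 and 61 counts over the 8 libraries.

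Other gamma genes on the list had no count at all. These were crygm1, crygm2a, crygm2b, crygm2c, crygm2e, crygm2f, crygm3, crygm5, crygm6, crygm7 and crygmxl1. In the RefSeq gene order, 32 of the 35 gamma M genes found there lie on the same chromosome as the crygm2d copies. Genes with and without counts stood next to each other in that order.

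The share of gamma in beta and gamma counts together varied among libraries. It was lowest in treated 7, at 11.5% (95% Wilson interval 8.65% to 15.0%), and highest in control 4, at 32.9% (28.3% to 37.8%). The share was 17.3% ± 5.93 in treated and 24.7% ± 5.51 in control libraries (SD, n = 4 each), and the groups overlapped because treated 5 held 25.5% (21.9% to 29.5%). The intervals cover counting error at most. They take each read as a separate molecule, so they are too narrow where reads are amplified copies.

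Pairs of neighbouring beta genes were set side by side. The RefSeq gene order places 3 pairs of an A and a B gene next to each other: CRYBA4 with CRYBB1, cryba1l1 with crybb1l1, and cryba1l2 with crybb1l2. Both members of each pair had higher mean levels in treated libraries, as did 9 of the 10 tested beta genes in all. The log2 fold changes were 1.31 and 1.48 in the first pair, 0.97 and 0.88 in the second and 1.89 and 1.21 in the third, written A before B. The standard errors of these 6 genes ran from 0.33 to 1.37, too wide to tell neighbours from other pairings of A and B genes. Whether neighbours changed together was not tested. Control 3 was the lowest library, or tied at 0 with control 1, for all 6 of these genes.

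**Figure D4:**
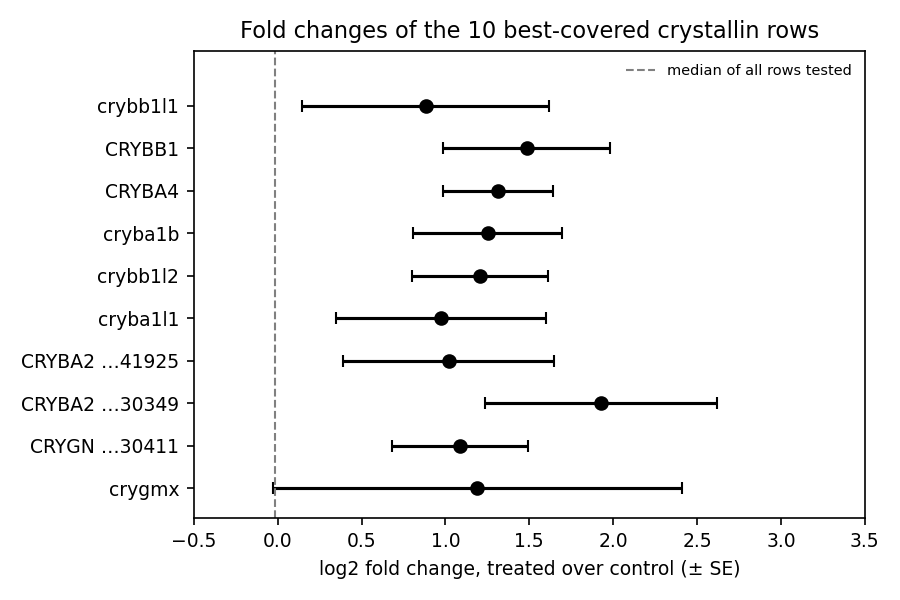
Log2 fold change of treated over control (points, horizontal axis) with its standard error (bars) for the 10 crystallin genes with a mean of at least 3 CPM; the dashed line is the median of all tested genes, -0.02. All 10 points lie between 0.88 and 1.93, and none passed the adjusted threshold.

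The 10 genes with a mean of at least 3 CPM were taken by their mean over all 8 libraries, and 2 of them, CRYBA2 (ENSDARG00000030349) and crygmx, reached that level in the treated group alone. Over the other 8, which reached it in both groups, control 3 was the lowest library in 7, treated 8 was the highest in 5 and treated 6 in 2. Treated 5 and 8 were above the median of the 8 libraries in 8 of the 8 genes, treated 6 in 7 and treated 7 in 2. Control 2 was above it in 7 of the 8, and controls 1, 3 and 4 in 0. The separation of the groups turned on which library was left out. Without control 2, 9 of the 25 tested crystallins had all treated above all remaining control libraries (background 3%), and without treated 7 there were 7 (background 3.44%). With each of the other 6 libraries left out there were 2 or 3 (background 2.94% to 3.71%). Of the 8 genes, 7 were separated without control 2, 5 without treated 7 and 1 or 2 without each of the others. Because these genes shared much of their order of libraries, such counts do not stand for independent genes. Without control 2 the log2 fold changes of the 10 ran from 1.35 to 3.23, with a lowest edgeR adjusted p of 0.0929. Without control 3 the log2 fold changes ran from 0.60 to 1.57, with a lowest edgeR adjusted p of 0.826.

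Lens fibre genes outside the family ordered the libraries in nearly the same way. From high to low the beta crystallin sums ran treated 8, treated 5, control 2, treated 6, treated 7, control 4, control 1 and control 3, and the sums of the lens fibre list differed from this only in having control 2 before treated 5. This list, of lens membrane, junction and filament genes, matched 22 genes, among them crybgx, 1 of the crybg genes left out of the family, with 1 count. Of the 22 genes 11 were tested, 9 with higher and 2 with lower values and none called in either direction. Their median log2 fold change was 0.57, against -0.02 over all tested genes. With 1 library left out, this median ran from 0.44, without control 1, to 1.70, without control 2. Among the 9, GRIFIN had 15 treated and 0 control counts, and BFSP2 had 10 and 2. Both so passed the limit of 10 counts through the treated libraries. The sum over the 22 genes was 37.3, 33.3, 29.4 and 51.7 CPM in treated 5 to 8, against 13.8, 42.8, 12.5 and 15.0 CPM in controls 1 to 4. Control 2 again lay inside the treated range, and controls 1, 3 and 4 lay below it. Controls 1, 3 and 4 lay close together in this sum, as did treated 6 and 7, so their order was weakly resolved. The list holds 2 genes named MIP, the water channel of fibre cells. MIP (ENSDARG00000013963) stood at 9.67 ± 1.01 CPM in treated and 3.83 ± 3.51 CPM in control libraries (SD, n = 4 each). Its groups did not overlap, but treated 5, at 8.80 CPM, and control 2, at 8.46 CPM, nearly met. It was the 1 tested gene of the list without overlap, against 1.8% of all tested genes without overlap and higher. MIP (ENSDARG00000037285) stood at 9.95 ± 7.17 CPM and 5.58 ± 4.73 CPM in treated and control libraries (SD, n = 4 each). The edgeR adjusted p of the 2 MIP genes was 0.721 and 0.929.

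The other genes of this list held fewer counts than the MIP genes. TDRD7, an RNA granule protein needed in the lens, had 97 counts and was counted in all 8 libraries. Its log2 fold change was 0.37 ± 0.63 (SE, edgeR adjusted p = 0.995). In TDRD7, control 3, at 4.79 CPM, lay above treated 5, 7 and 8 and below treated 6. The beaded filament genes BFSP1 and BFSP2 held 23 and 12 counts over the 8 libraries. GRIFIN, a lens galectin relative, had 15 counts, all in 2 treated libraries. 4 genes of the list, DNASE2B, gje1b, lim2.1 and tdrd7a, had no count in any library.

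Transcription factors of the lens, most of which other tissues also use, did not order the libraries as the crystallins did. Of 20 tested, 8 were higher and 12 lower in treated libraries, and none was called (median -0.06). Their sum was 635 ± 81.7 CPM in treated and 666 ± 78.0 CPM in control libraries (SD, n = 4 each). EYA1, a co-activator of the eye and ear network, stood at 56.5 ± 13.6 CPM in treated and 37.7 ± 7.28 CPM in control libraries, with a log2 fold change of 0.59 ± 0.20 (SE, edgeR adjusted p = 0.636). GATA3 and six7 had log2 fold changes of -0.54 ± 0.20 and -1.07 ± 0.43 (SE, edgeR adjusted p of 0.665 and 0.705).

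Small heat shock proteins, to which the alpha crystallins are related, were counted in all 8 libraries. With the heat shock factors HSF1 and HSF2, 8 genes of this list were tested, 5 higher and 3 lower, with none called (median 0.90). Their sum was 132, 81.3, 81.5 and 139 CPM in treated 5 to 8, against 77.8, 77.2, 97.8 and 107 CPM in controls 1 to 4. Treated 8 and 5 were the 2 highest libraries, as in the beta crystallins, whereas control 2 was the lowest. HSPB1, a chaperone of muscle and stressed cells, stood at 9.82 ± 6.08 CPM in treated and 3.67 ± 2.43 CPM in control libraries (SD, n = 4 each, edgeR adjusted p = 0.643). HSPB8, HSF2 and hspb9 had log2 fold changes of 0.66 ± 0.32, -0.27 ± 0.22 and 1.14 ± 1.01 (SE, edgeR adjusted p of 0.724 to 0.963).

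Markers of the rest of the eye were set beside the lens genes. Retina and optic cup genes summed to 250, 371, 305 and 290 CPM in treated 5 to 8, against 303, 280, 292 and 292 CPM in controls 1 to 4, with 9 of 16 tested genes higher, 7 lower and none called (median 0.07). Control 2 did not stand apart in these genes, and neither did control 3. 2 of the 22 matched retina genes were at 0. rlbp1b, a retinoid carrier, had a log2 fold change of 1.64 ± 0.68, and NEUROD4, a regulator of retinal and other neurons, one of 0.29 ± 0.15 (SE, edgeR adjusted p of 0.702 and 0.767).

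Pigment genes, which the retinal pigment epithelium shares with melanocytes, summed to 334, 370, 370 and 522 CPM in treated 5 to 8, against 318, 250, 253 and 286 CPM in controls 1 to 4. The groups did not overlap, and control 2 was the lowest library, whereas it was the highest control in the beta crystallins. 12 of 17 tested genes were higher and 5 lower, with none called (median 0.89) and none of the matched genes at 0. The 2 genes named TYRP1, a melanin enzyme, had log2 fold changes of 0.89 ± 0.21 and 1.01 ± 0.25 (SE, edgeR adjusted p of 0.383 and 0.399). The part of retina and pigment content in the crystallin levels was not tested.

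**Figure D5:**
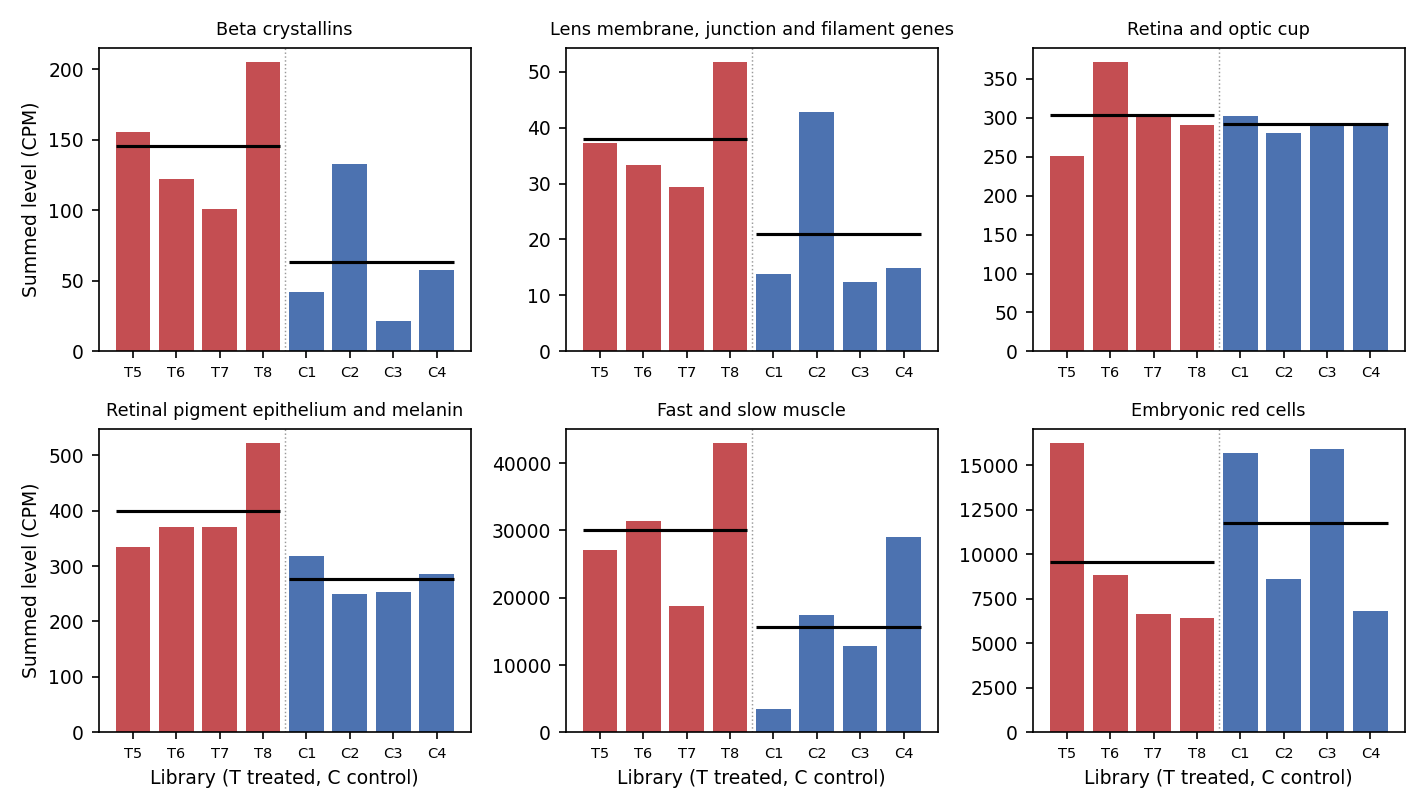
Summed level in CPM (vertical axes, each from 0 with its own scale) in the 4 treated (red) and 4 control (blue) libraries for the beta crystallins and 5 companion lists; black lines are group means. Control 2 is high in the beta crystallins and in the other lens fibre genes, at 133 and 42.8 CPM, and is the lowest library in the pigment list, at 250 CPM.

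Markers of other tissues of the embryo were compared in the same way. Muscle genes summed to 27058, 31384, 18717 and 42950 CPM in treated 5 to 8, against 3486, 17477, 12873 and 28963 CPM in controls 1 to 4, with 25 of 26 tested genes higher and 1 lower (median 0.93, and 0.60 without control 1), none called, and 4 of 30 matched genes at 0. Treated 8 led both the muscle and the beta crystallin sums, whereas control 1 was lowest in muscle and control 3 in crystallins. Red cell genes summed to 16249 CPM in treated 5, 15670 CPM in control 1 and 15941 CPM in control 3, and to between 6445 and 8865 CPM in the other 5 libraries. Treated 5 was rich in both red cell and beta crystallin RNA, whereas controls 1 and 3 were rich in red cell RNA and poor in beta crystallin RNA. All 16 tested red cell genes were lower in treated libraries, none was called (median -0.29, but -0.63 without treated 5 and -0.047 without control 3), and 3 of 19 matched genes were at 0.

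Epidermal genes summed to between 8482 and 10721 CPM in treated and between 6350 and 12911 CPM in control libraries, with control 2 the highest and control 3 the lowest of all 8. The 3 highest libraries in epidermal RNA, control 2, treated 8 and treated 5, and the 2 lowest, controls 1 and 3, were also the 3 highest and 2 lowest in the beta and in the gamma crystallin sums. Of 15 tested epidermal genes 8 were higher and 7 lower (median 0.005). Neural genes summed to between 1650 and 1815 CPM in treated and between 1754 and 1899 CPM in control libraries, with 3 of 11 tested genes higher and 8 lower (median -0.04). None of either list was called. In these lists the genes of smallest p were TNNI2 (ENSDARG00000035958), with a log2 fold change of 2.11, and MYOD1, with 0.78, in muscle, hbae5 and alas2, with -0.65 and -0.33, in red cells, SNAP25 and NEUROD1, with -0.63 and -0.54, in neurons, and epcam and krt17, with -0.41 and -0.44, in epidermis. Their edgeR adjusted p lay between 0.439 and 0.991. The part of tissue content in the crystallin levels was not tested.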

How the data were processed

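RNA of 8 zebrafish embryo libraries was sequenced. Per the labels' protocols, total RNA went into a stranded pico-input kit with mammalian probes against ribosomal cDNA and was read as paired 100 bp reads. The deposited table holds raw counts of whole numbers. Per the submitters' processing notes, GRCz11 was the build, and DESeq2 1.22.1, HISAT2 2.1.0, CASAVA 1.8.2, StringTie 1.3.3b and Trim Galore 0.5.0 were used in unstated roles. How reads were counted, on which annotation and with which strand setting is not given in the sources used here, so that counts of near-identical, overlapping or antisense genes are uncertain.

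Groups came from the sample titles. Symbols came from the name table supplied with the data, which covered 28975 of 32020 rows, and many are written in the human style. Names shared by 2 genes carry their Ensembl identifier. Unnamed rows, at 24.9% of counts in treated and 24.6% in control libraries on average, stayed in the test. 0 sample columns were left out. Neighbouring genes were read from the RefSeq gene table of GRCz12tu by symbol, where 48 of the 49 crystallins with a name of their own were found. Its coordinates are not used.

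Genes with at least 10 counts summed over the 8 libraries were scaled by TMM and compared with edgeR 4.0.16 (R 4.3.3), using the quasi-likelihood F-test with robust dispersion, no covariate and Benjamini-Hochberg adjustment over all 19151 genes. The biological coefficient of variation was 0.332 and the median standard error 0.36 (log2). Standard errors are the log2 fold change divided by the root of F. CPM are counts over TMM-scaled library sizes. No p is given for sums over members. DESeq2 1.42.0 gave no adjusted p for 10398 genes. Alternatives were other scalings and filters, DESeq2, limma 3.58.1 with voom, non-robust dispersion and each library left out. The steps were tested on simulated counts. Figures used matplotlib 3.10.9 and Python 3.11.15.

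Genes described library by library are crystallins with a mean of at least 3 CPM. In lens and small heat shock protein lists the 4 genes of smallest p at that level are named, and in other lists 2, except that some genes are not reported here. CRYBB3 and the sparse crystallins were chosen otherwise, to account for every member. The members and lists were chosen with earlier results of these data known.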

Additional observations from a re-analysis of the deposited data

Results flagged for a closer look

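A library lying far from the other 3 of its group was looked for in 90 groups of 4 values, where chance alone gives about 1 in 20. It was found 4 times, no more often than that rate gives. crybb1l1 stood at 35.6 CPM in control 2, against 5.75 to 10.8 CPM in the other controls. CRYBA2 (ENSDARG00000030349) stood at 11.1 CPM in treated 6, against 9.52 to 9.69 CPM in the other treated libraries. The summed lens membrane, junction and filament genes stood at 42.8 CPM in control 2, against 12.5 to 15.0 CPM in the other controls. The muscle troponin TNNI2 (ENSDARG00000035958) stood at 81.8 CPM in treated 8, against 30.9 to 34.3 CPM in the other treated libraries.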

How the results depend on the processing

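No crystallin passed the threshold in any of the 17 alternatives. DESeq2 gave an adjusted p to 5 crystallins, filterByExpr left 11 and the limit of 40 counts left 15, so the others could not pass there. The 10 genes with a mean of at least 3 CPM had higher values in treated libraries in all 17 alternatives. Of these 10, CRYBA2 (ENSDARG00000030349) and crygmx reached that mean in the treated group alone, and the other 8 reached it in both groups. Over all genes edgeR called 3, against 0 with filterByExpr, 0 with at least 40 counts, 0 with limma-voom, 0 with non-robust dispersion and 19 with DESeq2, and between 0 and 2 with each library left out. The log2 ratio of the beta sums, 1.2, ran from 0.91 without control 3 to 1.85 without control 2, and that of the gamma sums, 0.63, from 0.26 without treated 5 to 1.06 without control 2. The lens fibre list median of 0.57 was 1.3 with limma-voom and between 0.44 and 1.70 with each library left out. The same ranges were -0.25 to 0.029 for lens transcription factors, 0.49 to 1.37 for small heat shock proteins, 0.046 to 0.22 for retina, 0.67 to 0.97 for pigment, 0.60 to 1.38 for muscle, -0.63 to -0.047 for red cells, -0.18 to -0.031 for neural genes and -0.16 to 0.050 for epidermis. The cause was not tested. No paired analysis was made, because the labels name no clutch or batch by which treated and control libraries could be paired. At this depth 2 of 41 gamma genes reached a mean of 3 CPM and 15 were tested.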
